A study of Homo sapiens with 38 samples.

Results

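The 8 genes described here make, store, take back or break down the catecholamines, the transmitters dopamine, noradrenaline and adrenaline. They are TH, DDC, DBH and GCH1 (synthesis), SLC18A1 and SLC18A2 (loading of vesicles), SLC6A2 (uptake) and MAOA (breakdown), chosen by name, of 17054 genes in the 2 tables of the series. All 8 were read in the knockout experiment and 7 in the heterozygote experiment, where TH was not analysed. RNA came from SH-SY5Y cells, an established human neuroblastoma line of noradrenergic character derived from bone marrow, and polyadenylated RNA was sequenced in 38 libraries.

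In the knockout experiment each of 10 groups had 3 libraries: p53;USP7 double-knockout cells, p53;BCOR double-knockout cells, p53-knockout cells and wild-type cells, each in neural and in undifferentiated state, and wild-type neural cells given FT671 or its vehicle DMSO. Both double knockouts carry the p53 loss too, so the p53 knockout is the line they are set against. The heterozygote experiment had 4 groups of 2 libraries: USP7-heterozygous and wild-type cells in both states. Neural cells had been kept for 10 days in medium with 10 µM retinoic acid, which makes these cells stop dividing and grow neurites. USP7 is a deubiquitinase that acts on p53 regulation and on a Polycomb complex, BCOR is a subunit of that complex (PRC1.1), and FT671 is an inhibitor of USP7, for which the labels give no dose or duration. The labels do not say how many clones stand behind a genotype, nor whether libraries of a group came from separate cultures, so p-values measure the spread between these libraries, which may be technical.

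Catecholamine synthesis starts when tyrosine hydroxylase (TH), the rate-limiting enzyme, turns tyrosine into L-DOPA with the help of tetrahydrobiopterin, whose own synthesis begins with GTP cyclohydrolase (GCH1). Aromatic L-amino acid decarboxylase (DDC) makes dopamine from L-DOPA, and dopamine β-hydroxylase (DBH), which sits inside vesicles, makes noradrenaline from dopamine. The vesicular monoamine transporters of the SLC18A1 gene (typical of neuroendocrine cells) and the SLC18A2 gene (typical of neurons) fill the vesicles, the noradrenaline transporter SLC6A2 brings released transmitter back into the cell, and monoamine oxidase A (MAOA) of the outer mitochondrial membrane oxidises it. Sympathetic neurons, adrenal chromaffin cells and the neuroblastomas that arise from the same lineage use these genes.

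Of the 8 genes, 4 had an entry in the RefSeq promoter table used (build GRCh38.p14, while the authors' reads were aligned to hg19). The 250 bases before the start site are shown for 3 of them, because DBH and DDC fell with BCOR loss and SLC18A2 rose with FT671: DBH at chr9:133636113-133636362 on the plus strand, DDC at chr7:50565406-50565655 (upstream start) and chr7:50561072-50561321 (downstream start, 4334 bases away), both on the minus strand, and SLC18A2 at chr10:117240864-117241113 on the plus strand. Each is written 5′ to 3′ along the gene, and capitals mark TGACGT, the core of the cAMP response element, and TAAT, the core that homeodomain factors such as PHOX2A bind, on either strand.
DBH: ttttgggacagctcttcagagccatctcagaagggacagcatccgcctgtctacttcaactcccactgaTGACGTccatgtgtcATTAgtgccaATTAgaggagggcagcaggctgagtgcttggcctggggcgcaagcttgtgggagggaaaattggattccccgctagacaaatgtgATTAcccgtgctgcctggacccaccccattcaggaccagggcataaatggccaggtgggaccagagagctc
DDC upstream: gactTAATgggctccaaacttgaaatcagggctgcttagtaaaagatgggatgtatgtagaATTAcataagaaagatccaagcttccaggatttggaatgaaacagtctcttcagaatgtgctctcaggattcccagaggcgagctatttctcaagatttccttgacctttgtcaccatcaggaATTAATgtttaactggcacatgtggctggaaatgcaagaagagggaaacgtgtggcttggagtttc
DDC downstream: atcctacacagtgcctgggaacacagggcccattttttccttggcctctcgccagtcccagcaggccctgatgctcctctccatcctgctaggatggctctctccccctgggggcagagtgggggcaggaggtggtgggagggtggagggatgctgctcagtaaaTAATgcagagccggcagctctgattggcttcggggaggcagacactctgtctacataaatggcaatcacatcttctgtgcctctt
SLC18A2: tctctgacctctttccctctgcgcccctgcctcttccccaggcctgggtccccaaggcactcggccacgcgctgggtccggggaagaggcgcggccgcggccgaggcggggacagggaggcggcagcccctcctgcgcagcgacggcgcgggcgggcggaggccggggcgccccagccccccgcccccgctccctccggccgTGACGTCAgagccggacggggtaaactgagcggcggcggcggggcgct
The DBH window held 1 match to TGACGT and 3 to TAAT. The DDC windows held 4 (upstream start) and 1 (downstream start) matches to TAAT, 2 of the 4 overlapping, and no TGACGT. The SLC18A2 window held TGACGT on both strands, 2 overlapping matches that form 1 palindrome, and no TAAT. Over 35116 windows of 250 bases in the table, 7.1% held TGACGT and 47.4% held TAAT, so TAAT was no rarity. Another word, GATAAG (core of GATA factor sites, in 5.65% of windows), was in none of the 4. These matches describe letters and not binding, and gene counts do not tell which of the 2 DDC starts was used.

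Each library held between 16149022 and 17946790 reads in genes, and values are reads divided by a size factor per library (normalized counts). Gene changes are log2 differences ± SE from limma on log2(normalized count + 1), fitted over all genes, and a gene is called at an adjusted p (Benjamini-Hochberg) below 0.05. The label check held for USP7 and BCOR: USP7 was 4.32-fold and BCOR 5.49-fold lower in the neural double knockouts than in the p53 knockout, and USP7 differed by log2 -0.68 in neural heterozygotes from wild type. BCOR was also called down in p53;USP7 cells (log2 -0.79 neural, -0.63 undifferentiated, adjusted p = 9.4e-07 or less). USP7 was called down in undifferentiated p53;BCOR cells (log2 -0.33, adjusted p = 0.00141) and not called in neural ones (0.466). Genes of noradrenergic identity were read in every library, PHOX2A at 5241 normalized counts or more and HAND2 at 6339 or more. Among libraries, the third of undifferentiated p53-knockout cells had 0.0877% of its reads in skeletal muscle genes (0.00468% or less in every other library of the knockout experiment), and the third of undifferentiated p53;USP7 cells had 742 of 11604 genes at least 2-fold above both others of its group. That p53;USP7 library was also the lowest of its group for DBH and SLC6A2 and the highest for GCH1 and MAOA. Without it the difference from the p53 knockout was log2 -0.57 for DBH, -2.12 for SLC6A2, -0.94 for GCH1 and 0.76 for MAOA, against -0.71, -2.29, -0.81 and 0.87 with it, and all 5 calls of that comparison held. Without the third p53-knockout library the calls of BCOR and USP7 loss in undifferentiated cells held, and MAOA was called down with p53 loss (log2 -0.35, adjusted p = 0.0392).

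In wild-type cells of the knockout experiment the pathway was uneven. The genes lie apart in the genome, on chromosomes 11 (TH), 7 (DDC), 9 (DBH), 14 (GCH1), 8 (SLC18A1), 10 (SLC18A2), 16 (SLC6A2) and X (MAOA). Per kilobase of exon in the GENCODE annotation, DBH was the highest of the 8 in both states, at 6524 normalized counts per kb in neural and 2017 in undifferentiated cells, and TH the lowest, at 0.808 and 0.170. TH, the enzyme that sets the pace of the pathway, had 2, 2 and 1 reads in the wild-type neural libraries, against 1, 0 and 0 in the undifferentiated ones. SLC18A2 was read at 46.4 per kb in neural and 44.4 in undifferentiated cells, and its relative SLC18A1 at 14.4 in neural and 134 in undifferentiated cells, so the order of the vesicular transporters differed between the states. The antisense gene DBH-AS1 overlaps DBH, and whether reads were counted by strand is not given in the sources used here. DBH-AS1 was at 77.0 to 359 normalized counts in the group means of the knockout experiment, so that reads of the pair may be mixed where DBH is low.

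**Figure D1:**
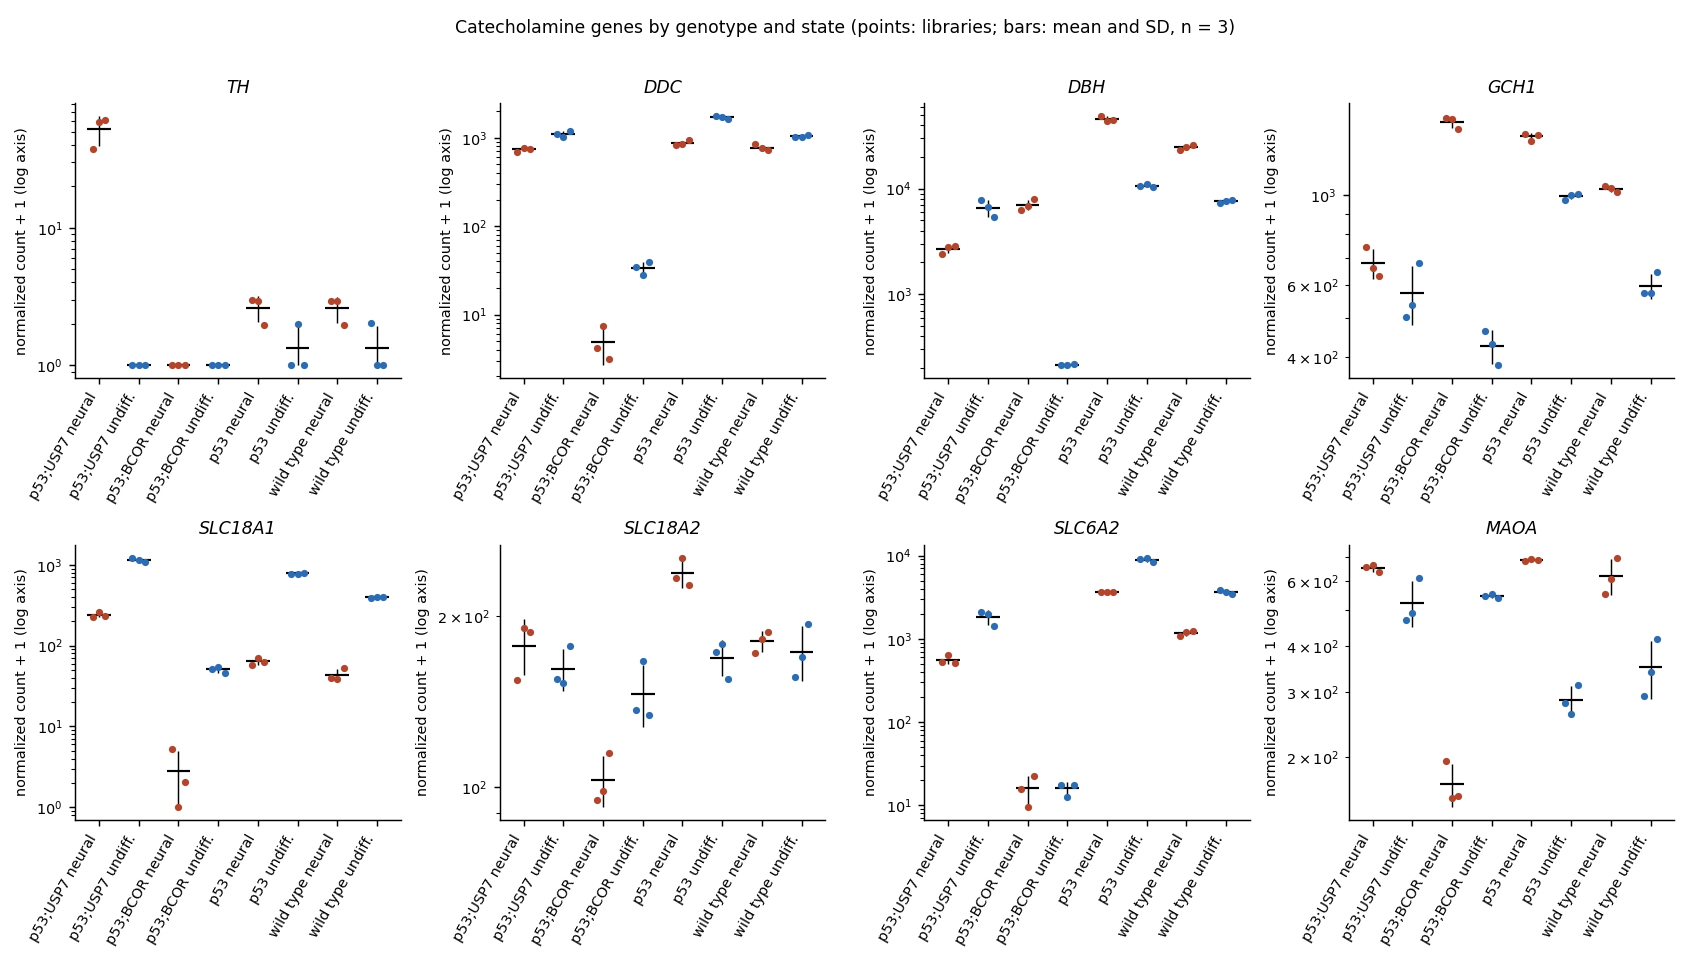
Normalized count + 1 (log axis, a scale per panel) of each gene in each library of the 8 genotype groups; red points are neural, blue points undifferentiated libraries, bars the mean and SD of 3. DDC and SLC6A2 were lowest in p53;BCOR cells of both states, SLC18A1 was lowest in neural p53;BCOR cells, and DBH was highest in p53-knockout neural cells (mean 45799).

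Differentiation of wild-type cells moved the genes apart: DBH, GCH1 and MAOA rose, SLC6A2 and SLC18A1 fell, and DDC and SLC18A2 were not called. In all 6 of 8 were called, 4 up and 2 down, where 65.7% of all genes were called. DBH stood at 23110, 24725 and 26049 normalized counts in the neural libraries, against 7373, 7670 and 7804 in undifferentiated ones. Every neural library lay above every undifferentiated one, a 3.23-fold rise (log2 1.69 ± 0.09, adjusted p = 3.19e-15). GCH1 averaged 1036 ± 17.1 in neural and 597 ± 42.3 in undifferentiated cells (SD, n = 3 each; log2 0.79 ± 0.08), and MAOA 619 ± 70.5 in neural and 350.03 ± 63.3 in undifferentiated cells (log2 0.83 ± 0.11). The uptake gene SLC6A2 had 1077, 1199 and 1247 normalized counts in neural libraries, against 3873, 3640 and 3468 in undifferentiated ones. That was 3.12-fold lower (log2 -1.64 ± 0.19, adjusted p = 7.91e-08). SLC18A1 had 38.5, 37.5 and 51.7 in neural and 392, 396 and 399 in undifferentiated libraries, 9.29-fold lower (log2 -3.20 ± 0.36, adjusted p = 4.38e-08). DDC averaged 775 ± 62.1 in neural and 1040.2 ± 38.8 in undifferentiated cells, groups that did not overlap, but its adjusted p was 0.0974; it passed at adjusted p = 1.32e-06 when only these 2 groups were fitted, 0.015 with edgeR (RLE factors) and 0.0136 with DESeq2. SLC18A2 averaged 179.6 ± 7.83 in neural and 172 ± 19.0 in undifferentiated cells (adjusted p = 0.61). The TH call (adjusted p = 0.0443) rested on 5 reads in 3 neural libraries against 1 in 3 undifferentiated ones, a ratio of 4.78 with a 95% counting interval of 0.534 to 226, and was lost with edgeR (adjusted p = 0.412 with TMM) and DESeq2 (0.177).

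Other genes of the pathway moved both ways in the same comparison. Of 9 genes that supply cofactors, 4 rose and 3 fell (median log2 0.20, against -0.01 over all genes). CYB561, which passes electrons into vesicles for DBH, averaged 1680.0 ± 105 in neural and 9576.5 ± 280 in undifferentiated cells (log2 -2.51 ± 0.07), and SPR, which finishes tetrahydrobiopterin, fell by 0.70 on the log2 scale. ATP7A, a copper pump that serves secreted copper enzymes, rose by log2 0.76 ± 0.07. Of 9 measured of 13 other breakdown and conversion enzymes, 3 rose and 3 fell (median log2 -0.16), ALDH2 rising by 0.39 on the log2 scale. SLC29A4, a plasma membrane monoamine transporter and the only measured one of 5 other uptake transporters, rose by log2 1.44 ± 0.10. Among 4 measured of 14 adrenergic and dopamine receptors, DRD2 and DRD4 rose (log2 4.49 ± 0.36 and 0.70 ± 0.28), ADRA2A fell (log2 -2.90 ± 0.22) and ADRA2C was not called. Noradrenergic transcription factors divided into 5 up, 5 down and 1 not called of 11 measured: GATA2, TLX2 and GATA3 fell by 2.38, 2.34 and 1.79 on the log2 scale. Of 4 measured acetylcholine genes 3 rose, among them SLC18A3, the vesicular acetylcholine transporter, at 1898 ± 107 in neural and 389 ± 37.2 in undifferentiated cells (log2 2.28 ± 0.10), and CHAT, which makes acetylcholine (log2 3.34 ± 0.41). The adjusted p of the genes named here as having risen or fallen was 0.0299 (DRD4) or less.

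The heterozygote experiment holds a separate set of wild-type cells through the same 10 days, and there 5 of 7 genes were called, all down, where 79.3% of all genes were called. DBH had 12194 and 11779.7 normalized counts in neural libraries, against 28993 and 28049 in undifferentiated ones (log2 -1.25 ± 0.04, adjusted p = 4.25e-19). GCH1 had 1076 and 1166 in neural and 1664 and 1656 in undifferentiated libraries (log2 -0.57 ± 0.06, adjusted p = 2.13e-09). For both genes this direction is the opposite of that in the knockout experiment, in every library; the 2 experiments were normalized and fitted apart, and the difference between them was not tested. The undifferentiated wild-type cells of the experiments also started from other levels of DBH (28521 ± 667, n = 2, in the heterozygote experiment and 7615 ± 221, n = 3, in the knockout experiment). SLC6A2 fell here too (log2 -2.68 ± 0.05), and SLC18A1 was 30.6-fold lower in neural cells (adjusted p = 0.000116). DDC fell (632 ± 4.42 in neural and 1936 ± 65.1 in undifferentiated cells, log2 -1.61 ± 0.06). SLC18A2 (adjusted p = 0.747) and MAOA (0.28) were not called. CYB561, SLC29A4, ADRA2A, DRD2, GATA2, GATA3, TLX2 and SLC18A3 were called in the direction they had in the knockout experiment, for example SLC29A4 at log2 1.43 ± 0.05 and SLC18A3 at log2 3.79 ± 0.09. MAOB, a relative of MAOA, went the other way: log2 0.84 ± 0.24 here and -0.55 ± 0.14 in the knockout experiment.

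**Figure D2:**
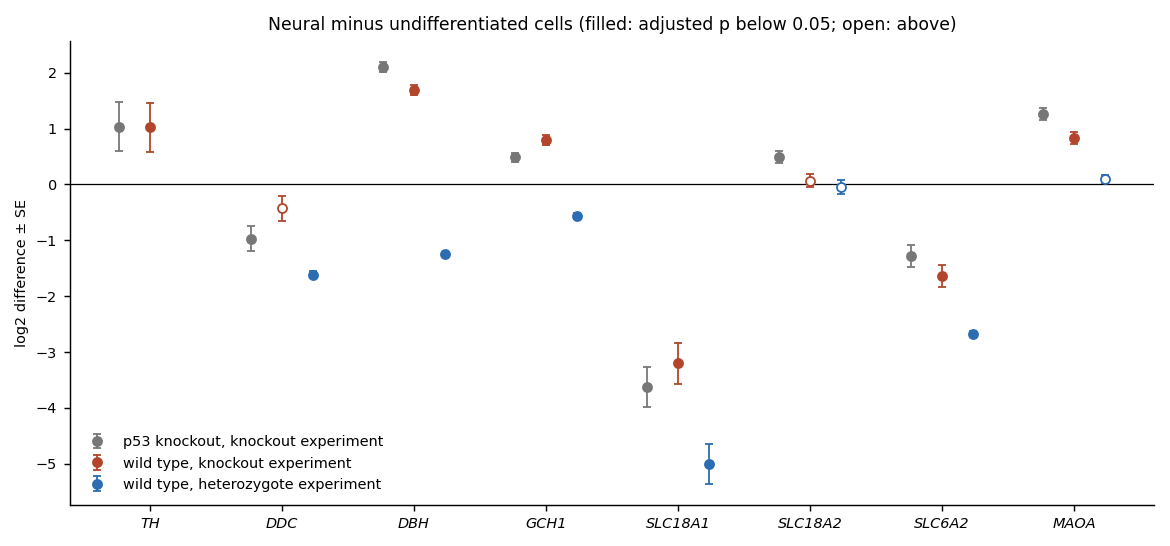
Log2 difference ± SE of neural minus undifferentiated cells for each gene in p53-knockout cells (grey) and wild-type cells (red) of the knockout experiment and in wild-type cells of the heterozygote experiment (blue); filled points are called, open points not. DBH lies at 1.69 (red) and -1.25 (blue), GCH1 at 0.79 and -0.57, while SLC6A2 and SLC18A1 lie below 0 in all 3; TH has no blue point.

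Loss of p53 came with higher DBH, GCH1 and SLC6A2 in both states. In undifferentiated cells 4 of 8 genes were called and all 4 were up, where 22.2% of all genes were called; in neural cells it was again 4 of 8, all up, where 29.8% were called. SLC6A2 had 9091, 9291 and 8298 normalized counts in undifferentiated p53-knockout libraries, against 3873, 3640 and 3468 in wild type (log2 1.28 ± 0.19, adjusted p = 2.25e-05). In neural cells SLC6A2 had 3695, 3688 and 3622 in p53-knockout libraries, against 1077, 1199 and 1247 in wild type, 3.12-fold higher (log2 1.65 ± 0.19, adjusted p = 4.85e-07). DBH averaged 45799 ± 2742 in p53-knockout and 24628 ± 1472 in wild-type neural cells (log2 0.90 ± 0.09), and 10669 ± 340 in p53-knockout and 7615 ± 221 in wild-type undifferentiated cells (log2 0.49 ± 0.09). GCH1 rose in both states (log2 0.43 ± 0.08 neural, 0.74 ± 0.08 undifferentiated). DDC was called in undifferentiated cells, at 1701 ± 67.0 in p53-knockout and 1040.2 ± 38.8 in wild-type cells (log2 0.71 ± 0.22, adjusted p = 0.0242), a call lost without the first or second library of either group (adjusted p between 0.0597 and 0.0677). SLC18A2 was called in neural cells (log2 0.39 ± 0.11, adjusted p = 0.00834). For neither was the difference between the states called (adjusted p = 0.269 for DDC and 0.0645 for SLC18A2). SLC18A1 averaged 784 ± 16.7 in p53-knockout and 395 ± 3.50 in wild-type undifferentiated cells, with no overlap but an adjusted p of 0.0535; all 3 count fits called it (largest adjusted p = 0.000276, edgeR with TMM). Outside the 8 genes, ACHE, which breaks down acetylcholine, rose by log2 3.57 ± 0.15 in neural p53-knockout cells and CYB561 by log2 0.82 ± 0.07. The transcription factor HAND1 fell there by 1.07 on the log2 scale.

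Differentiation of p53-knockout cells gave calls for all 8 genes, 5 up and 3 down, where 69.0% of all genes were called. DBH averaged 45799 ± 2742 in neural and 10669 ± 340 in undifferentiated cells, 4.29-fold higher (log2 2.10 ± 0.09), MAOA 683 ± 4.84 in neural and 285 ± 25.8 in undifferentiated cells (log2 1.26 ± 0.11), and SLC18A2 236 ± 13.9 in neural and 168 ± 12.3 in undifferentiated cells (log2 0.49 ± 0.11). DDC fell here (log2 -0.97 ± 0.22, adjusted p = 0.000539), with SLC6A2 (log2 -1.28 ± 0.19) and SLC18A1 (log2 -3.63 ± 0.36). The TH call again stood on 5 reads against 1 and was lost with edgeR (adjusted p = 0.408 with TMM) and DESeq2 (0.171). The interaction of p53 loss with differentiation was called for DBH (log2 0.41 ± 0.13, adjusted p = 0.0293) and MAOA (log2 0.43 ± 0.15, adjusted p = 0.0476), 2 of 8 where 18.1% of all genes were called. Neither call held without the second undifferentiated wild-type, the first neural wild-type or the first neural p53-knockout library (adjusted p between 0.0558 and 0.0853 for DBH and between 0.0672 and 0.141 for MAOA).

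BCOR loss lowered DDC, SLC6A2 and SLC18A1 in both states, DDC and SLC18A1 to a few reads per library in neural cells. In undifferentiated cells 6 of 8 genes were called, 5 down and 1 up, where 69.4% of all genes were called, and in neural cells 7 of 8, all down, where 62.3% were called. SLC6A2 had 16.7, 11.5 and 16.7 normalized counts in undifferentiated p53;BCOR libraries, against 9091, 9291 and 8298 in the p53 knockout, 594-fold lower (log2 -9.14 ± 0.19, adjusted p = 8.11e-22). In neural cells it had 14.8, 8.58 and 21.5 in p53;BCOR libraries, against 3695, 3688 and 3622 in the p53 knockout (log2 -7.93 ± 0.19, adjusted p = 7.16e-21). No library of p53;BCOR cells came near one of the p53 knockout. DDC had 3.17, 6.44 and 2.15 normalized counts in neural p53;BCOR libraries, against 820.04, 856 and 933 in the p53 knockout, 222-fold lower (log2 -7.56 ± 0.22, adjusted p = 3.14e-19). In undifferentiated cells it had 33.4, 27.1 and 38.7 in p53;BCOR libraries, against 1746, 1733 and 1624 in the p53 knockout (log2 -5.66 ± 0.22). The decarboxylase gene thus stood lower in every p53;BCOR library than in any other library of the experiment. SLC18A1 had 4.22, 0 and 1.07 in neural p53;BCOR libraries, against 56.0, 70.1 and 62.4 in the p53 knockout (log2 -4.85 ± 0.36, and -5.46 without the first p53;BCOR library), and 50.2, 54.2 and 45.0 against 771, 779 and 803 in undifferentiated cells of the same pair (log2 -3.96 ± 0.36).

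DBH departed from DDC and SLC6A2 in p53;BCOR cells. It had 212, 214 and 219 normalized counts in undifferentiated p53;BCOR libraries, against 10679, 11004 and 10324 in the p53 knockout, 49.7-fold lower (log2 -5.63 ± 0.09, adjusted p = 8.46e-27). In neural cells it had 6329, 6849.6 and 7917 in p53;BCOR libraries, against 48964, 44132 and 44301 in the p53 knockout, 6.51-fold lower (log2 -2.71 ± 0.09). Within p53;BCOR cells DBH was 32.7-fold higher in neural than in undifferentiated libraries (log2 5.02 ± 0.09, adjusted p = 1.29e-25), and the interaction of BCOR loss with differentiation was log2 2.92 ± 0.13 (adjusted p = 1.25e-16). DBH-AS1 averaged 105 ± 6.27 in those undifferentiated cells, beside 215 ± 3.34 for DBH. GCH1 was lower in undifferentiated cells (424 ± 41.4 in p53;BCOR and 994 ± 18.0 in p53-knockout cells, log2 -1.23 ± 0.08) and was not called in neural cells (1511.5 ± 53.5 in p53;BCOR and 1393 ± 29.4 in p53-knockout cells, adjusted p = 0.229). MAOA was called up in undifferentiated cells (log2 0.94 ± 0.11) and down in neural cells (168 ± 22.6 in p53;BCOR and 683 ± 4.84 in p53-knockout cells, log2 -2.02 ± 0.11), with an interaction of log2 -2.97 ± 0.15 (adjusted p = 1.92e-15). SLC18A2 fell in neural cells to 102 ± 10.6 in p53;BCOR cells, against 236 ± 13.9 in the p53 knockout (log2 -1.21 ± 0.11). The interaction called 6 of 8 genes, where 63.8% of all genes were called: besides DBH and MAOA these were DDC (log2 -1.91 ± 0.32), GCH1 (1.35 ± 0.12), SLC6A2 (1.21 ± 0.27) and SLC18A2 (-0.99 ± 0.16). TH had 0 reads in all 6 p53;BCOR libraries, against 5 reads over the 3 neural p53-knockout libraries. That p53-knockout mean was 1.53-fold what 3 reads over the neural p53;BCOR group would give, a ratio without the counting error of the 5 reads. The call of TH in neural cells (adjusted p = 0.00848) was lost with edgeR (adjusted p = 0.214 with TMM) and DESeq2 (0.0511).

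Differentiation of p53;BCOR cells called 6 of 8 genes, 2 up (DBH and GCH1) and 4 down, where 57.1% of all genes were called; of those calls 47.3% were up, and 57.5% after TMM rescaling. GCH1 averaged 1511.5 ± 53.5 in neural and 424 ± 41.4 in undifferentiated cells (log2 1.83 ± 0.08), the widest rise of GCH1 among the 4 genotypes of the experiment. MAOA averaged 168 ± 22.6 in neural and 547 ± 6.91 in undifferentiated cells (log2 -1.70 ± 0.11), where wild-type, p53-knockout and p53;USP7 cells had MAOA called up. DDC and SLC18A1 fell further (log2 -2.87 ± 0.22 and -4.52 ± 0.36), and SLC6A2 stayed near its low level, at 14.9 ± 6.45 in neural and 15.0 ± 3.04 in undifferentiated cells (adjusted p = 0.784).

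Transcription factors and neighbours of the pathway moved with BCOR loss as well. Of 11 noradrenergic transcription factors 9 fell and 2 rose in neural cells (median log2 -1.45, against -0.01 over all genes): TFAP2B averaged 76.8 in p53;BCOR and 4304 in p53-knockout cells (log2 -5.79 ± 0.06), and HAND1 (log2 -5.38) and ISL1 (-2.66) fell as well. All 4 measured receptors fell, DRD2 to 7.84 in p53;BCOR cells, against 627 in the p53 knockout (log2 -6.18 ± 0.36). Of the cofactor list 1 rose, 4 fell and 4 were not called, with CYB561 at log2 -1.04 ± 0.07 and GCHFR, the feedback regulator of GCH1, at -1.27 ± 0.18. ALDH2 fell by 1.07 on the log2 scale. The acetylcholine genes SLC18A3 and ACHE fell (log2 -3.03 and -4.36), and BCHE rose (log2 2.01). In undifferentiated cells SLC18A3 went the other way (log2 1.66 ± 0.10) and GAD1, which makes GABA, rose by log2 4.46 ± 0.12. The adjusted p of these named genes was 6.11e-07 (GCHFR) or less.

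Markers of other cell states moved in the same libraries. The summed normalized count of 11 markers of mesenchymal neuroblastoma cells lay between 176400 and 179700 in neural p53;BCOR libraries, between 86140 and 91140 in neural p53;USP7 libraries and between 20400 and 20610 in neural p53-knockout libraries. Of those 11, 9 rose and 2 fell with BCOR loss in neural cells, and 9 rose and none fell with USP7 loss. The sum of 5 chromaffin markers read of 7 was 242700 to 282300 in neural p53;BCOR libraries, 8601 to 10330 in neural p53;USP7 libraries and 59470 to 65520 in neural p53-knockout libraries. Of those 5, 2 rose and 3 fell with BCOR loss in neural cells (median log2 -3.37), and 1 rose and 4 fell with USP7 loss (median log2 -2.09). CHGA, a core protein of catecholamine granules, averaged 262580 ± 21539 in p53;BCOR and 27104 ± 1633 in p53-knockout neural cells (log2 3.27 ± 0.14), while its relative CHGB fell (log2 -3.71 ± 0.09); both are named here after their values were seen. Of 7 Schwann cell markers 5 were read (the defining SOX10 and FOXD3 were not analysed here), with sums of 1658 to 1756 in neural p53;BCOR and 377 to 418.5 in neural p53-knockout libraries. In RNA of whole cultures, fewer cells of a type and less RNA per cell cannot be told apart, and the part of these shifts in the catecholamine results was not tested.

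**Figure D3:**
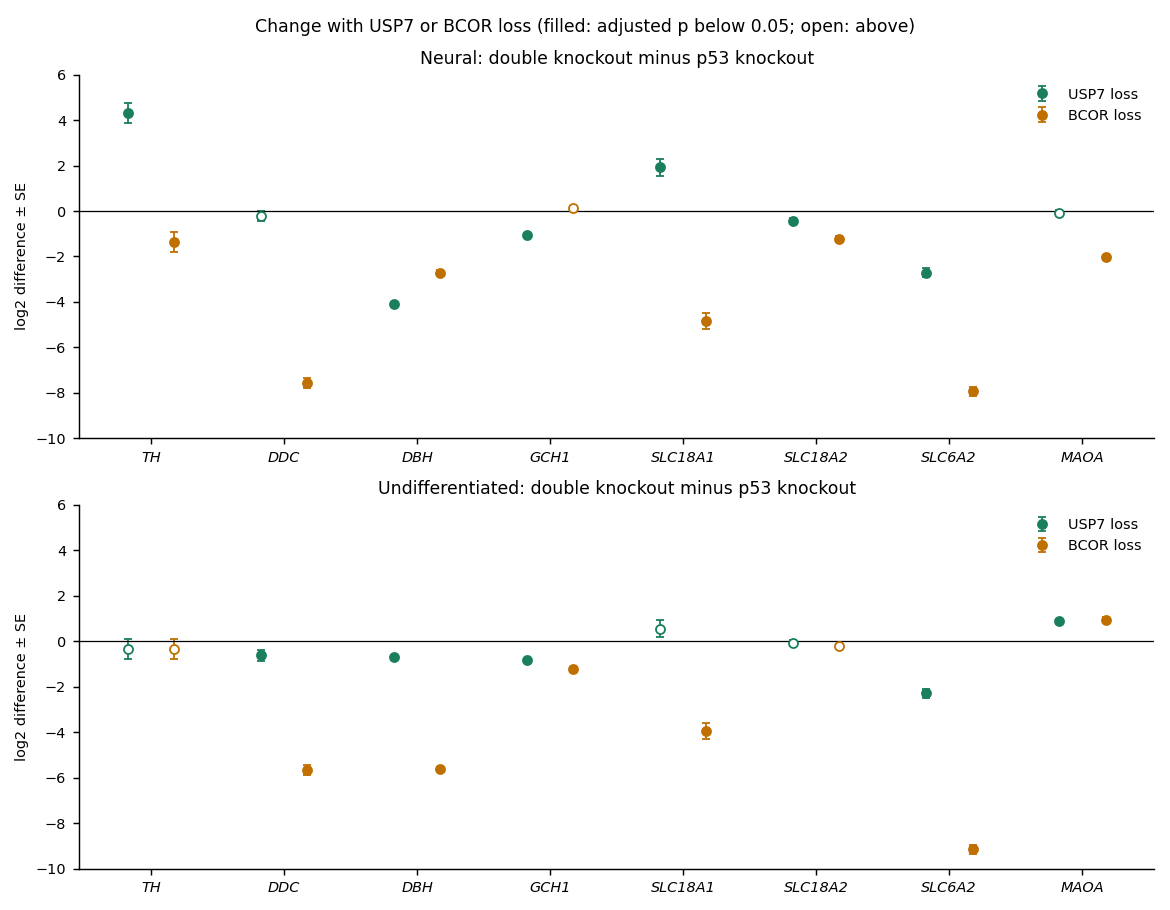
Log2 difference ± SE of double-knockout minus p53-knockout cells for each gene with USP7 loss (green) and BCOR loss (orange), neural cells above and undifferentiated cells below; filled points are called. In neural cells USP7 loss lies above 0 for TH (4.31) and SLC18A1 (1.91), where BCOR loss lies below (-1.37 and -4.85). The TH point of BCOR loss rests on 0 reads against 5, and its call was lost with edgeR and DESeq2.

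USP7 loss lowered DBH, GCH1 and SLC6A2 in both states and raised TH and SLC18A1 in neural cells. In undifferentiated cells 5 of 8 genes were called, 4 down and 1 up, where 57.3% of all genes were called, and in neural cells 6 of 8, 4 down and 2 up, where 63.7% were called. DBH had 2406, 2777 and 2846 normalized counts in neural p53;USP7 libraries, against 48964, 44132 and 44301 in the p53 knockout, 17.1-fold lower (log2 -4.10 ± 0.09, adjusted p = 6.81e-24). In undifferentiated cells it had 7765, 6667 and 5366 in p53;USP7 libraries, against 10679, 11004 and 10324 in the p53 knockout, 1.62-fold lower (log2 -0.71 ± 0.09). The effect on DBH differed between the states (interaction log2 -3.39 ± 0.13, adjusted p = 1.35e-17). SLC6A2 had 527, 634 and 514 in neural p53;USP7 libraries, against 3695, 3688 and 3622 in the p53 knockout (log2 -2.72 ± 0.19), and 2119.8, 1974 and 1422 in undifferentiated p53;USP7 libraries, against 9091, 9291 and 8298 in the p53 knockout (log2 -2.29 ± 0.19). Neither pair of groups overlapped. GCH1 fell by 1.04 in neural and by 0.81 in undifferentiated cells on the log2 scale.

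TH was read in neural p53;USP7 cells, at 36.7, 57.6 and 59.8 normalized counts, against 1.97, 1.95 and 0.975 in the neural p53 knockout. All 3 libraries lay far above every untreated wild-type and every p53-knockout library, a 31.5-fold difference from the neural p53 knockout (log2 4.31 ± 0.44, adjusted p = 1.52e-09). They overlapped the DMSO-treated wild-type neural libraries, which averaged 75.0 ± 67.6. Undifferentiated p53;USP7 libraries had 0 TH reads, and neural p53;USP7 cells were 50.6-fold higher when set against 3 reads over that group. SLC18A1 had 226, 257 and 234 in neural p53;USP7 libraries, against 56.0, 70.1 and 62.4 in the p53 knockout (log2 1.91 ± 0.36, adjusted p = 6.55e-05). In undifferentiated cells it averaged 1159.6 ± 67.6 in p53;USP7 and 784 ± 16.7 in p53-knockout cells, without overlap and not called (adjusted p = 0.191), while all 3 count fits called it (largest adjusted p = 0.0203). DDC had 697, 769 and 749.7 in neural p53;USP7 libraries, against 820.04, 856 and 933 in the p53 knockout (adjusted p = 0.371), and fell in undifferentiated cells (log2 -0.62 ± 0.22, adjusted p = 0.021, and 0.061 without the second p53;USP7 library). The difference between the states was not called for DDC (adjusted p = 0.349). MAOA rose in undifferentiated cells (524 ± 75.1 in p53;USP7 and 285 ± 25.8 in p53-knockout cells, log2 0.87 ± 0.11), was not called in neural cells (adjusted p = 0.581), and its interaction was log2 -0.94 ± 0.15 (adjusted p = 1.16e-05). SLC18A2 fell by 0.43 on the log2 scale in neural cells (adjusted p = 0.00165). The interaction called 4 of 8 genes, where 42.1% of all genes were called, the others being TH (log2 4.64 ± 0.62) and SLC18A1 (1.35 ± 0.51, adjusted p = 0.0368). The SLC18A1 interaction was lost with 0.5 added (adjusted p = 0.097) and when any 1 of 9 of the 12 libraries was left out (adjusted p between 0.0501 and 0.0732). It held without the third undifferentiated p53-knockout, the second neural p53-knockout or the first undifferentiated p53;USP7 library.

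With differentiation of p53;USP7 cells 7 of 8 genes were called, 3 up and 4 down, where 65.5% of all genes were called. DBH fell (2677 ± 237 in neural and 6599 ± 1201 in undifferentiated cells, log2 -1.29 ± 0.09), the opposite of its direction in the other 3 genotypes of the experiment. TH and MAOA rose without overlap of the groups (MAOA log2 0.32 ± 0.11), SLC6A2 and SLC18A1 fell (log2 -1.70 ± 0.19 and -2.27 ± 0.36), and SLC18A2 was not called (adjusted p = 0.295). The calls of GCH1 (groups that overlap), DDC (adjusted p = 0.0263) and MAOA (0.0112) were lost without the first undifferentiated p53;USP7 library, at adjusted p = 0.0854, 0.0527 and 0.0605. DDC was also lost without the third undifferentiated p53;USP7 library (0.0928). Without the first neural p53;USP7 library DDC (0.0703) and GCH1 (0.0746) were lost. With only the groups compared GCH1 (0.18) and MAOA (0.0715) were lost.

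Around the 8 genes, MAOB was the breakdown enzyme that USP7 loss moved most clearly. It averaged 765 ± 35.8 in neural p53;USP7 and 81.5 ± 7.86 in p53-knockout cells (log2 3.22 ± 0.14), and 415 ± 33.9 and 82.9 ± 0.959 in the undifferentiated cells of the same pair (log2 2.31 ± 0.14). Of 9 measured enzymes of that list in neural cells 4 rose and 4 fell, PNMT, which makes adrenaline from noradrenaline, rising by log2 2.11 ± 0.30. SPR rose by log2 2.11 ± 0.08, 1 of 3 of the 9 cofactor genes that rose, while 2 fell and 4 were not called. Of 11 noradrenergic transcription factors 9 fell and 1 rose (median log2 -0.98, against -0.01 over all genes), with ISL1 falling by 3.45 and HAND1 by 2.10 on the log2 scale. Among 4 receptors DRD2 and ADRA2C fell (log2 -3.76 ± 0.36 and -0.91 ± 0.12) and ADRA2A rose (log2 1.11 ± 0.22). SLC29A4 fell by 0.93. Of the acetylcholine genes SLC18A3, ACHE and CHAT fell (log2 -2.72, -1.88 and -3.53), and BCHE rose (log2 2.03).

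USP7 and BCOR loss share the p53-knockout libraries as controls, so the double knockouts were also set against each other. In undifferentiated cells 5 of 8 genes were called, all higher in p53;USP7 cells, where 65.2% of all genes were called; in neural cells all 8 were called, 6 higher and 2 lower in p53;USP7 cells, where 60.9% were called (53.1% of those calls higher, 43.1% after TMM rescaling). DDC averaged 739 ± 37.3 in neural p53;USP7 and 3.92 ± 2.24 in neural p53;BCOR cells, a 188.5-fold difference (log2 7.33 ± 0.22, adjusted p = 1.55e-18). SLC6A2 was 37.4-fold higher (log2 5.21 ± 0.19), SLC18A1 135-fold higher (log2 6.76 ± 0.36) and MAOA 3.87-fold higher in p53;USP7 cells (log2 1.95 ± 0.11). TH was 48.1-fold higher when set against 3 reads over the p53;BCOR group, which had 0 reads. DBH and GCH1 were the lower ones in neural p53;USP7 cells, at 2677 ± 237 against 7032 ± 810 for DBH (log2 -1.39 ± 0.09) and 679 ± 58.0 against 1511.5 ± 53.5 for GCH1 (log2 -1.16 ± 0.08). In undifferentiated cells DBH ran the other way, 30.7-fold higher in p53;USP7 cells (log2 4.92 ± 0.09).

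FT671 raised SLC18A2, DDC and SLC6A2 in wild-type neural cells and lowered DBH and GCH1. Against DMSO 7 of 8 genes were called, 5 up and 2 down, where 65.1% of all genes were called (median log2 0.96 over the 8, -0.01 over all genes). SLC18A2 had 1715, 1794 and 1822 normalized counts with FT671, against 199, 231 and 173 with DMSO. The gene of the neuronal vesicular transporter was thus 8.84-fold higher (log2 3.15 ± 0.11, adjusted p = 2.54e-19), while in the other 9 groups of the experiment its means ran between 102 and 236. DDC had 2922, 3094 and 3007 with FT671, against 644, 1327 and 714 with DMSO (log2 1.82 ± 0.22, adjusted p = 1.47e-07). SLC6A2 had 2502, 2763 and 2511 with FT671, against 1225, 1250.4 and 1198 with DMSO, 2.12-fold higher (log2 1.08 ± 0.19, adjusted p = 3.31e-05). DBH had 6447, 7054 and 6142 with FT671, against 18361, 17919.8 and 16915 with DMSO (log2 -1.44 ± 0.09, adjusted p = 1.24e-13). GCH1 averaged 923 ± 40.0 with FT671 and 1485 ± 57.0 with DMSO (log2 -0.69 ± 0.08), and MAOA 658 ± 16.7 with FT671 and 595 ± 26.0 with DMSO (adjusted p = 0.24).

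The second DMSO library was the highest of its group for 6 of 8 genes, by the widest margins for TH, SLC18A1 and DDC. TH had 142, 142 and 114 normalized counts with FT671, against 29.1, 153 and 43.3 with DMSO (log2 1.18 ± 0.44, adjusted p = 0.0214), so the groups overlapped. SLC18A1 had 274, 321 and 271 with FT671, against 109, 292 and 128 with DMSO (log2 0.85 ± 0.36, adjusted p = 0.0436), again with overlap. Without the second DMSO library the differences were log2 1.87 for TH (adjusted p = 0.000287), 1.28 for SLC18A1 (0.00296) and 2.15 for DDC (1.23e-09), and all 3 calls held. Without other libraries the TH and SLC18A1 calls were fragile. The TH call was lost without the first or the third DMSO library or the first or second FT671 library (adjusted p between 0.0582 and 0.197), with 0.5 added (0.062), with only the groups compared (0.192), with edgeR and TMM (0.075) and with DESeq2 (0.119). The SLC18A1 call was lost without any 1 of the other 5 libraries (adjusted p between 0.0667 and 0.21), with 0.5 added (0.106), with TMM rescaling (0.0652), with only the groups compared (0.141) and with the replicate block (0.0554).

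DMSO itself was set against untreated wild-type neural cells. Of 8 genes 4 were called, 3 up and 1 down, where 8.70% of all genes were called. TH had 29.1, 153 and 43.3 normalized counts with DMSO, against 1.92, 1.93 and 0.957 in untreated cells (log2 4.53 ± 0.44, adjusted p = 5.05e-08, and log2 3.84 without the second DMSO library). SLC18A1 had 109, 292 and 128 with DMSO, against 38.5, 37.5 and 51.7 in untreated cells (log2 1.90 ± 0.36, adjusted p = 0.00132). GCH1 was 1.43-fold higher (log2 0.52 ± 0.08) and DBH 1.39-fold lower (log2 -0.47 ± 0.09) with DMSO. For both TH and SLC18A1 every DMSO library lay above every untreated one, and the labels do not say whether DMSO-treated and untreated cells were grown together.

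**Figure D4:**
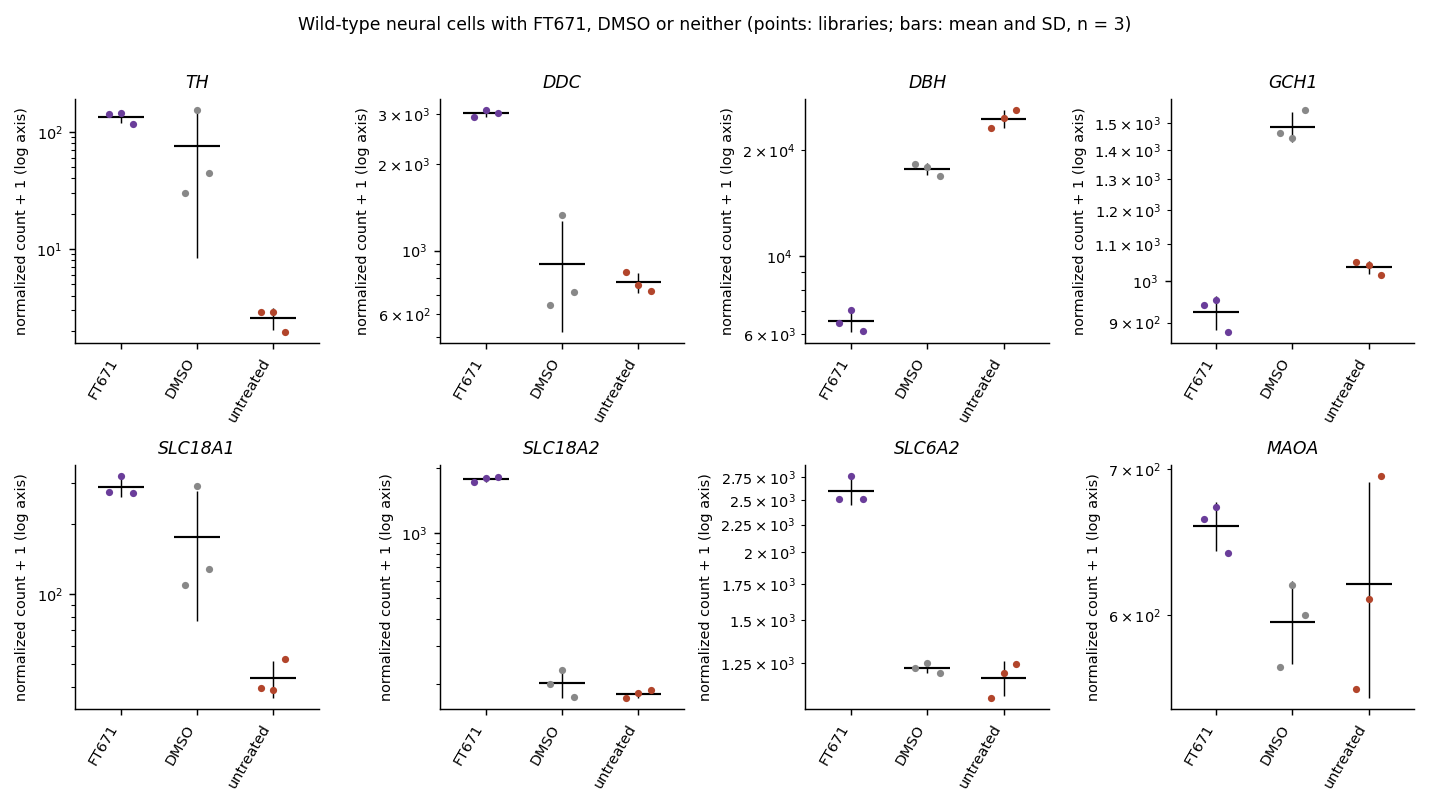
Normalized count + 1 (log axis, a scale per panel) of each gene in wild-type neural libraries with FT671 (violet), DMSO (grey) or neither (red); bars give the mean and SD of 3. SLC18A2 lies between 1715 and 1822 with FT671, against 173 to 231 with DMSO, and the second DMSO library is the high grey point of TH, DDC and SLC18A1.

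The rest of the pathway shifted with FT671 as well. Of 9 cofactor genes 5 rose, 1 fell and 3 were not called (median log2 0.52, against -0.01 over all genes): SPR rose by log2 1.92 ± 0.08, CYB561 by 1.42 ± 0.07 and QDPR, which recycles tetrahydrobiopterin, by 0.93 ± 0.06. Of 9 breakdown and conversion enzymes 6 rose and 1 fell (median log2 0.55). MAOB averaged 275 ± 6.79 with FT671 and 52.7 ± 9.55 with DMSO (log2 2.38 ± 0.14), and PNMT 186 ± 9.28 with FT671 and 25.9 ± 4.16 with DMSO (log2 2.81 ± 0.30). DRD2 fell (log2 -2.17 ± 0.36), and DRD4, ADRA2A and ADRA2C rose. Noradrenergic transcription factors gave 9 down and 1 up of 11 (median log2 -0.82), with ISL1 falling by 2.32 and HAND2 by 0.99 on the log2 scale. SLC18A3 and CHAT fell by 1.97 and 3.45, and ACHE rose by 2.66 on the log2 scale. The mesenchymal marker sum was 87710 to 90280 with FT671 and 43560 to 46910 with DMSO, with 7 of 11 genes up and 2 down. The sum of the 5 chromaffin markers was 83470 to 87160 with FT671 and 58480 to 76440 with DMSO, while 2 of them rose and 3 fell (median log2 -0.38), CHGA by the most (log2 -3.27 ± 0.14). The part of these shifts in the catecholamine results was not tested.

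Values with FT671 and with USP7 loss come from different controls (DMSO-treated wild-type cells and p53-knockout cells), and no test joined them. Side by side, in neural cells, DBH differed by log2 -1.44 ± 0.09 with FT671 and -4.10 ± 0.09 with USP7 loss, and GCH1 by -0.69 ± 0.08 and -1.04 ± 0.08. SLC6A2 differed by log2 1.08 ± 0.19 with FT671 and by -2.72 ± 0.19 with USP7 loss. SLC18A2 differed by log2 3.15 ± 0.11 with FT671 and -0.43 ± 0.11 with USP7 loss, and DDC by 1.82 ± 0.22 and -0.24 ± 0.22. Among the 8 genes DBH and GCH1 were thus called down in both, and SLC6A2 and SLC18A2 in opposite directions. TH and SLC18A1 were called up in both, but with FT671 their groups overlapped and the calls were lost under the alternatives given above. TH averaged 75.0 ± 67.6 normalized counts with DMSO alone and 51.4 ± 12.8 in neural p53;USP7 cells. SLC18A1 averaged 176 ± 100 with DMSO alone and 239 ± 15.9 in neural p53;USP7 cells. For both genes these groups overlapped.

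USP7 heterozygosity lowered DBH, DDC and GCH1 in both states, by less than 2-fold. In neural cells 5 of 7 genes were called, 4 down and 1 up, where 21.3% of all genes were called, and in undifferentiated cells 3 of 7, all down, where 25.4% were called. DBH had 8079.6 and 8449 normalized counts in heterozygous neural libraries, against 12194 and 11779.7 in wild type (log2 -0.54 ± 0.04, adjusted p = 9.3e-11). In undifferentiated cells it had 20727 and 21314 in heterozygous libraries, against 28993 and 28049 in wild type (log2 -0.44 ± 0.04, adjusted p = 2.65e-09). Both pairs lay apart. DDC had 366 and 404 in heterozygous neural libraries, against 635 and 629 in wild type (log2 -0.71 ± 0.06, adjusted p = 2.77e-09). It differed less in undifferentiated cells (log2 -0.18 ± 0.06, adjusted p = 0.0322), a call lost without any 1 of the 4 libraries (for example adjusted p = 0.225 without the second wild-type one) and with DESeq2 (0.0811). The effect on DDC differed between the states, with an interaction of log2 -0.54 ± 0.08 (adjusted p = 7.29e-05). GCH1 fell by 0.39 in neural and by 0.25 in undifferentiated cells on the log2 scale.

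SLC6A2 fell in heterozygous neural cells, where it had 679 and 769 normalized counts, against 904 and 962 in wild type (log2 -0.37 ± 0.05, adjusted p = 1.66e-05). In undifferentiated cells it had 6187 and 6465 in heterozygous libraries, against 6075 and 5923 in wild type (adjusted p = 0.326), and the interaction was log2 -0.44 ± 0.08 (adjusted p = 0.000206). SLC18A2 had 193 and 221 in heterozygous neural libraries, against 140.3 and 168 in wild type (log2 0.42 ± 0.12, adjusted p = 0.0169), a call lost without the first wild-type library (adjusted p = 0.178) and with DESeq2 (0.0951). SLC18A1 had 56.9 and 60.9 in heterozygous neural libraries, against 25.3 and 53.8 in wild type, and was not called (adjusted p = 0.299); without the second of those wild-type libraries its difference was log2 1.19 (adjusted p = 1.21e-08) and without the first log2 0.13. MAOA averaged 482 ± 10.5 in heterozygous and 496 ± 23.4 in wild-type neural cells (SD, n = 2 each; adjusted p = 0.774). The interaction called 2 of 7 genes, where 16.2% of all genes were called. For SLC18A1 it was log2 1.17 ± 0.51 and not called (adjusted p = 0.219), while all 3 count fits called it (largest adjusted p = 0.0454, DESeq2).

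Differentiation of heterozygous cells called 6 of 7 genes, 5 down and 1 up, where 76.4% of all genes were called. SLC18A1 fell by 3.83 on the log2 scale. SLC6A2 averaged 724 ± 63.5 in neural and 6326 ± 196 in undifferentiated cells (log2 -3.13 ± 0.05), and DDC (log2 -2.15 ± 0.06), DBH (-1.35 ± 0.04) and GCH1 (-0.70 ± 0.06) fell too. SLC18A2 rose (log2 0.30 ± 0.12, adjusted p = 0.0308), a call lost with DESeq2 (adjusted p = 0.107) and without the second neural heterozygous library (0.237).

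**Figure D5:**
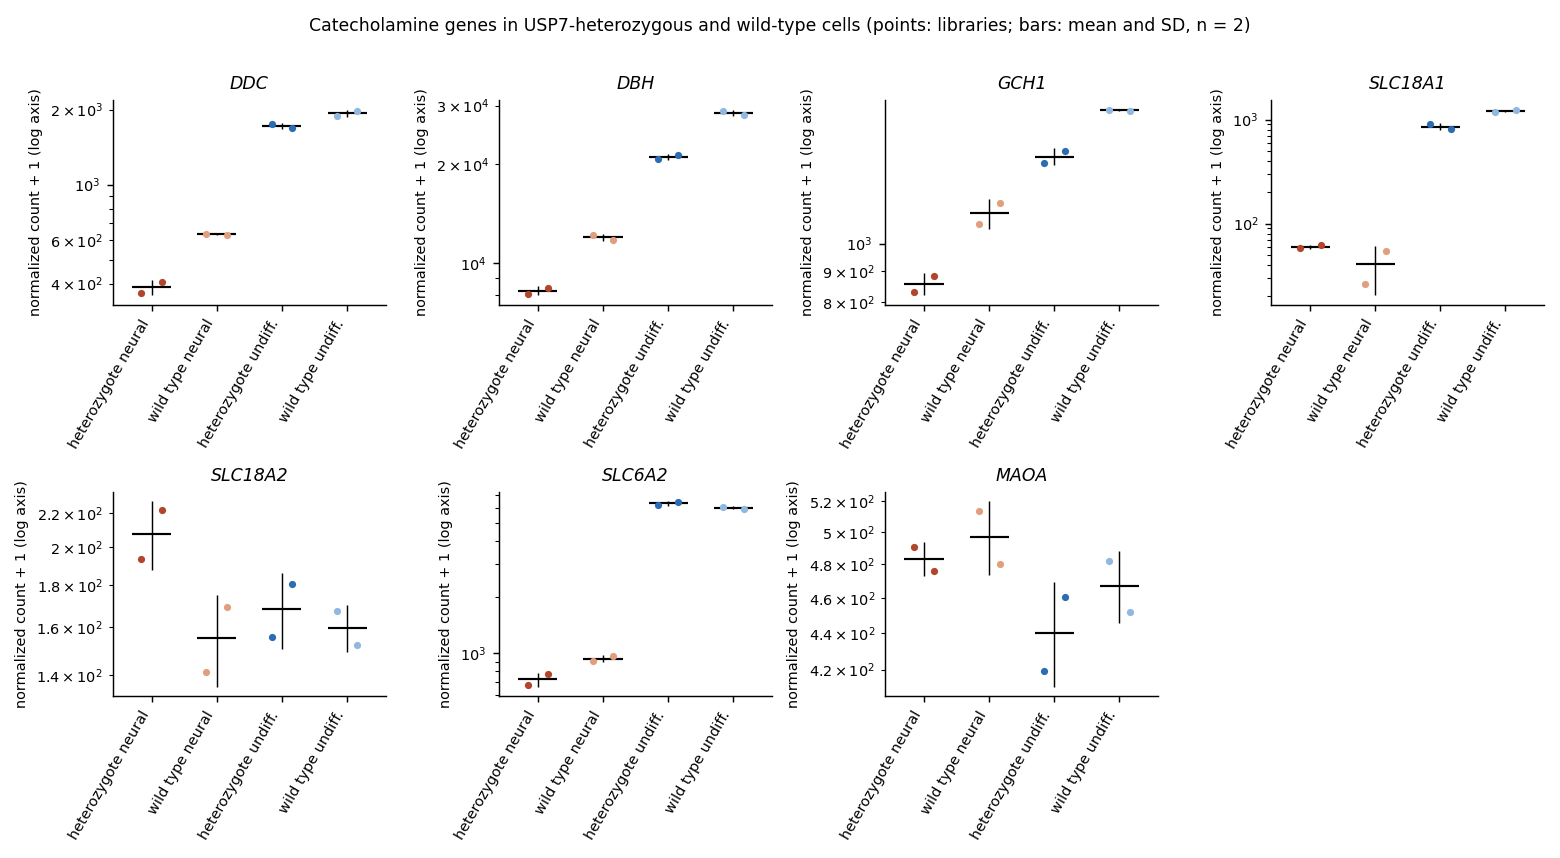
Normalized count + 1 (log axis, a scale per panel) of 7 genes in each library of the heterozygote experiment: heterozygous neural, wild-type neural, heterozygous undifferentiated and wild-type undifferentiated cells, with the mean and SD of 2. DBH, DDC and GCH1 are lower in heterozygous than in wild-type libraries of the same state, with no overlap.

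Other pathway genes in heterozygous neural cells moved both ways. Of 9 cofactor genes 3 rose, 1 fell and 5 were not called, with QDPR at log2 0.35 ± 0.05 and ATP7A at -0.40 ± 0.05. Of 11 noradrenergic transcription factors 5 fell and 2 rose (median log2 -0.10): TFAP2B, GATA2 and ISL1 fell by 0.75, 0.68 and 0.65 on the log2 scale. DRD2 averaged 199.9 in heterozygous and 520.2 in wild-type neural cells (log2 -1.38 ± 0.12), and 3 of 4 receptors fell. MAOB fell (log2 -0.78 ± 0.24). The mesenchymal marker sum, over 10 genes read of 11, was 73580 to 74050 in heterozygous and 47900 to 50870 in wild-type neural libraries. Of those 10 genes 4 rose, 2 fell and 4 were not called (median log2 0.10). The sum of the 5 chromaffin markers was 78510 to 80160 in heterozygous and 58220 to 58320 in wild-type neural libraries. Of those 5, 4 rose and 1 was not called (median log2 0.32). The part of these sums in the catecholamine results was not tested.

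Over the 10 groups of the knockout experiment the 8 genes differed widely in how far their levels spread. GCH1 and MAOA spanned 3.56-fold and 4.06-fold between the highest and lowest group mean, SLC18A2 17.45-fold, DBH 213-fold, SLC6A2 595-fold, SLC18A1 657-fold and DDC 768-fold. The highest DBH and MAOA means were in neural p53-knockout cells, those of DDC, SLC18A2 and TH with FT671, that of SLC6A2 in undifferentiated p53-knockout cells, that of SLC18A1 in undifferentiated p53;USP7 cells, and that of GCH1 in neural p53;BCOR cells. Neural p53;BCOR cells were lowest for DDC, SLC6A2, SLC18A1, SLC18A2 and MAOA. Neighbouring groups often overlapped: for SLC18A2, 7 of 9 steps in the order did, and for DBH the groups of wild-type undifferentiated, p53;BCOR neural, p53;USP7 undifferentiated and FT671 cells ran into each other. Counted over 22 comparisons DBH was called 21 times, GCH1 18 times, SLC6A2 17 times, DDC 16 times, SLC18A1 14 times, MAOA 11 times and SLC18A2 10 times, and TH 9 times in 17. The comparisons share libraries. Each called between 8.70% (DMSO) and 79.3% (wild-type differentiation, heterozygote experiment) of all genes.

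As a description over group means (log2), which share libraries' scaling and the same 10 groups, DDC ran with SLC6A2 (Pearson r = 0.932) and SLC18A1 (r = 0.837), and DBH with GCH1 (r = 0.755). Without the 2 p53;BCOR groups no pair of DDC, SLC6A2 and SLC18A1 was above 0.7, while DBH and GCH1 stood at 0.768 and DDC and SLC18A2 at 0.788 over 8 groups. The last value leans on FT671, where SLC18A2 averaged 1777 (160 to 236 in the rest of these groups) and DDC was also highest (3007). Of 11604 genes averaging 100 normalized counts or more, the pattern most like that of DDC was BMP8B (r = 0.993), then KCNQ1 (0.981) and RNF175 (0.974). For SLC6A2 the nearest were HPCAL4 (0.981), TSPAN33 (0.979) and PRIMA1 (0.969), and for SLC18A1 FBLN2 (0.977), AFAP1L1 (0.973) and PLPPR4 (0.961). For DBH they were PGRMC1 (0.973), PRDX2 (0.943) and C19orf25 (0.923), and for GCH1 CHRNB4 (0.923), USB1 (0.917) and CNTN2 (0.911). SLC18A2 was closest to GALNT11 (0.925), ABCC5 (0.924) and SESN1 (0.919), TH to STK19 (0.97), GABPB1-AS1 (0.931) and MRI1 (0.926), and MAOA to PIK3CD (0.963) and FNDC4 (0.953), with another gene (0.933) whose symbol had been turned into a date. The TH pattern rests on the DMSO, FT671 and neural p53;USP7 groups, because every other group held 5 TH reads or fewer.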

How the data were processed

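SH-SY5Y cells were profiled by sequencing of polyadenylated RNA. Per the submitters' processing notes reads were aligned to hg19 with STAR, counted with HTSeq and normalized with DESeq2; versions are not given in the sources used here. The authors deposited a signal per gene and library, 1 table per experiment, that equals reads divided by a size factor (0.922 to 1.04) plus 1; all values (100.0%) gave whole reads within 0.01. Of the level columns, 6 matched no sample and were not used. In the heterozygote table column names gave the group but not the sample.

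Normalized counts here are the deposited values less 1. Each experiment was fitted over all its groups with limma 3.58.1 (R 4.3.3; trend, robust; two-sided) on log2(normalized count + 1), for genes averaging 5 or more (15351 and 14820 genes), with Benjamini-Hochberg adjustment over all genes and calls below 0.05, and tested on simulated data. Fold changes are ratios of mean normalized counts, and log2 differences understate changes of low genes. Intervals on few reads are exact and cover counting error only. Alternatives were edgeR 4.0.16 and DESeq2 1.42.0 on recovered reads, other added values (0.5, 5), no filter, TMM rescaling, only the groups compared, a replicate block and leaving out each library. The 8 genes and all gene lists were chosen with earlier results of these data known. Other genes are named where, per list and comparison, they were among the 4 smallest adjusted p of called genes whose groups did not overlap; some genes and checks are not reported here. In the replicate-number check only p53;USP7 against p53 knockout, undifferentiated, had all 3 same-numbered pairs correlated over 0.1 (0.151, 0.112 and 0.226); the pairing comes from these data, not the labels, and the replicate block changed no call of the 8 genes there.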

Additional observations from a re-analysis of the deposited data

Results flagged for a closer look

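Effects on the 8 genes that differed between neural and undifferentiated cells were tested as interactions (neural effect minus undifferentiated effect, log2, limma with Benjamini-Hochberg adjustment over all genes). For p53 loss they were 0.41 for DBH (adjusted p = 0.0293) and 0.43 for MAOA (0.0476). Neither was called without, for example, the first neural wild-type library (adjusted p = 0.0814 and 0.141). MAOA was also lost with TMM rescaling (0.0774) and with edgeR and TMM (0.0734). For USP7 loss on the p53 knockout they were 4.64 for TH (6.69e-07), -3.39 for DBH (1.35e-17), 1.35 for SLC18A1 (0.0368) and -0.94 for MAOA (1.16e-05). The SLC18A1 value was lost with 0.5 added (adjusted p = 0.097) and without any 1 of 9 of the 12 libraries (0.0501 to 0.0732). The TH value was not called by edgeR (adjusted p = 0.238), and its undifferentiated libraries held 0 or 1 reads. For BCOR loss they were 2.92 for DBH (1.25e-16), -1.91 for DDC (1.45e-05), 1.35 for GCH1 (1.29e-10), 1.21 for SLC6A2 (0.000523), -0.99 for SLC18A2 (4.61e-06) and -2.97 for MAOA (1.92e-15). For USP7 heterozygosity they were -0.54 for DDC (7.29e-05) and -0.44 for SLC6A2 (0.000206).

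In wild-type cells, differentiation moved DBH by log2 1.69 in the knockout experiment and by -1.25 in the heterozygote experiment, and GCH1 by 0.79 and -0.57. Every library followed its experiment's direction, and the difference between the experiments was not tested.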

How the results depend on the processing

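No called difference of the 8 genes changed its direction under any alternative run. Of 171 gene results per setting, 168 kept their direction and side of the threshold with 0.5 added, 164 with 5 added, 171 without the filter, 165 with TMM rescaling, 154 with edgeR (TMM), 160 with edgeR (RLE) and 156 with DESeq2; 141 of 160 did so when only the groups compared were fitted, and 1031 of 1128 when a library was left out. With the replicate block in the knockout experiment 135 of 136 did, the exception being SLC18A1 with FT671 (log2 0.849, adjusted p = 0.0554); the block changed no other call. No paired analysis was possible for the heterozygote experiment because the replicate numbers of its columns differ from those of the labels, so a column could be tied to a group but not to a numbered sample.

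Differences that were not called changed sign in 37 cases over 13 gene results, 26 of them with a library left out. With a library left out, the log2 difference for p53 loss ran between -0.3363 and 0.3353 for TH and -0.1022 and 0.0532 for SLC18A2 in undifferentiated cells, and between -0.1781 and 0.209 for TH in neural cells (interaction for TH -0.3203 to 0.3514). For differentiation it ran between -0.0037 and 0.1517 (SLC18A2, wild type), -0.1752 and 0.0852 (SLC18A2, wild type of the heterozygote experiment) and -0.3581 and 0.2568 (SLC6A2, p53;BCOR). For DMSO it ran between -0.1897 and 0.3315 (DDC) and -0.1292 and 0.0331 (MAOA). For heterozygosity it ran between -0.0352 and 0.1796 (SLC18A2, undifferentiated), -0.087 and 0.0093 (MAOA, neural) and -0.0207 and 0.1143 (MAOA, interaction). Under other settings TH with p53 loss was 0.0191 (edgeR, TMM), 0.0227 (edgeR, RLE) and 0.0318 (DESeq2) in undifferentiated cells, -0.0037 (TMM rescaling) and -0.0058 (edgeR, TMM) in neural cells, and -0.0015 (TMM rescaling), -0.0248 (edgeR, TMM) and -0.0032 (DESeq2) for the interaction. SLC6A2 with p53;BCOR differentiation was 0.0191 (TMM rescaling) and 0.0908 (edgeR, TMM), and the BCOR interaction of SLC18A1 was 0.4833 with 5 added, against -0.89.

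The number of the 8 genes called for differentiation of p53;USP7 cells was 7, and between 4 and 7 with a library left out. For the interaction of p53 loss it was 2, and 6 with only the groups compared, 1 with TMM rescaling, 1 with edgeR (TMM) and 0 to 3 with a library left out. Counts over all genes that moved over 1.5 times were, fitting only the groups compared, 6692 against 10060 (p53;USP7 differentiation), 4774 against 8798 (USP7 loss, undifferentiated), 6476 against 10009 (USP7 against BCOR loss, undifferentiated) and 3725 against 1336 (DMSO). The DMSO count was 834 without the first untreated library and 802 without the third DMSO library. For heterozygosity DESeq2 gave 2172 against 3768 (undifferentiated), 2029 against 3151 (neural) and 1202 against 2400 (interaction), and leaving out a library gave as few as 2449, 1947 and 1538. The cause was not tested. Depth limits TH outside DMSO, FT671 and neural p53;USP7 cells, where groups held 5 reads or fewer.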
